A study of Mus musculus with 10 samples.

Results

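Genes that encode parts of the striated muscle sarcomere were followed in the RNA of mouse aortae. They are *Tnnt2*, *Tnni3*, *Tnnc1*, *Actc1*, *Acta1*, *Myh6*, *Myh7*, *Myl4*, *Myl7* and *Ttn*, which make 10 of the 55453 lines of the count table. They were selected on values of these same libraries, so their differences with age describe the libraries and carry no test. The libraries came from 10 male C57BL/6 mice, 5 of them young (14.5 weeks) and 5 old (92.5 weeks), with 1 stranded poly(A) library per mouse. No treatment or altered allele is named for either group. Vessels were flushed with saline and freed of the fat around them before RNA was extracted, and reads counted on genes numbered from 19640401 to 22886153 per library. The tissue carried its defining smooth muscle genes: 15 of 15 smooth muscle markers, *Acta2* and *Myh11* at their head, summed to between 47745 and 55845 CPM (counts scaled to the total of the library) in young and between 44960 and 53990 in old aortae.

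The sarcomere is the repeating contractile unit of heart and skeletal muscle, in which myosin motors of the thick filament pull on actin thin filaments. Calcium binding to the troponin complex frees the actin for the motor, and the giant protein titin holds the filaments in register. Smooth muscle of the vessel wall contracts with other actin and myosin genes, and has no sarcomeres. Striated muscle lies next to the aorta, with heart muscle at its root and the diaphragm and muscles of the back along its course.

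The members followed 3 patterns. *Tnnt2*, the cardiac troponin T, was higher in all 5 old libraries than in any young one, and *Actc1*, the cardiac alpha-actin, was lower in all 5 old libraries. *Myl7* and *Myh6*, which encode the atrial light chain and the alpha heavy chain of heart myosin, were high in young replicates 2 and 5 and near 0 in the other 8 libraries. Young replicate 2 held the highest normalized count of 10 of 22 heart markers, and young replicates 2 and 5 were the top 2 libraries for 4 of the 22. Summed over the list, the heart markers were not highest in these libraries. *Acta1*, the skeletal alpha-actin, and *Ttn* were high in young replicate 2 alone. That library also held the highest normalized count of 12 of 27 skeletal muscle markers. Of these, *Casq1* and *Mybpc2* were nearly as high in another young library (2598 against 2354 and 231 against 214 counts). *Tnni3*, *Tnnc1*, *Myl4* and *Myh7* overlapped between the ages.

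The sequences just before a RefSeq start of the 4 members that stand for these patterns are given to show what precedes that start. Each stretch is the 150 bases upstream of a RefSeq transcript start on GRCm38.p6, read 5′ to 3′ on the strand of the gene. The stretch of *Actc1* lies inside the gene as annotated for the counts (chr2:114047282-114053548) and holds 12 bases of its exons. Capitals mark a CArG box, which serum response factor binds, or an M-CAT motif (CATTCC on the strand shown), which TEAD factors bind.
*Tnnt2*, plus strand, chr1:135836184-135836333: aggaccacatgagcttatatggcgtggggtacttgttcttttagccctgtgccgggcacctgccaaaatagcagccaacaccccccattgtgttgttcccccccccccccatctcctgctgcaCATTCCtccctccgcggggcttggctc
*Actc1*, minus strand, chr2:114052876-114053025: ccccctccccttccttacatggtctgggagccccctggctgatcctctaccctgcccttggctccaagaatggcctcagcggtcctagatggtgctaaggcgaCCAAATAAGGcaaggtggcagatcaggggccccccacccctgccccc
*Acta1*, minus strand, chr8:123894776-123894925: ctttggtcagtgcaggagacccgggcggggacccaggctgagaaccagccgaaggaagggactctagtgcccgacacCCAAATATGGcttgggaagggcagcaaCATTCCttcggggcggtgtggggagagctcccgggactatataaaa
*Myl7*, minus strand, chr11:5898783-5898932: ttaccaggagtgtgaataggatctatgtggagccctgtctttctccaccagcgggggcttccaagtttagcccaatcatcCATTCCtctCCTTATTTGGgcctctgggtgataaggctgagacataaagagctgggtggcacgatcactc

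All 10 members had a RefSeq start, and *Tnnt2* and *Myh7* had 2, of which the upstream stretch of 1 is shown for *Tnnt2*. A window of 300 bases at each of the 12 starts (250 before the start, 50 after it) was searched on both strands. A CArG box was found for 3 members, the actins *Actc1* and *Acta1* and the light chain *Myl7*. Among all mouse windows, 535 of 32851 (1.63%) held one. CATTCC or its reverse complement GGAATG was found for 7 members and in 14.7% of all windows. A MEF2 site was found for *Ttn* and in 1.86% of all windows. Of the members with a CArG box, *Actc1* was lower in every old library. *Acta1* was high in young replicate 2 and *Myl7* in young replicates 2 and 5. *Tnnt2*, which was higher in every old library, had CATTCC alone. A match describes the letters and is not evidence of binding in these vessels.

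The thin filament members came first. *Tnnt2* (chr1:135836354-135852260, GRCm38) encodes the troponin subunit that anchors the complex to tropomyosin in heart muscle. Its normalized counts (counts divided by the size factor of the library) were 218, 268, 354, 173 and 194 in young replicates 1 to 5. In old replicates 1 to 5 they were 602, 552, 1545, 506 and 785. The lowest old library was thus above the highest young one, and old replicate 3 stood far above the rest of its group. Old replicate 3 was also the highest library for leukocyte markers, whose sum of 816 CPM stood above the next at 504, and their part in its *Tnnt2* value was not tested. The mean of 798 ± 431 in old aortae was 3.31 times the mean of 241 ± 72.3 in young ones (SD, n = 5 each), with a fitted log2 fold change of 1.74 ± 0.35 (SE). Without old replicate 3 the log2 fold change was 1.35. In bulk RNA a change in the number of cells of a type and a change in RNA per cell cannot be told apart.

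*Tnnt2* was not set apart where *Myh6* and *Myl7* were high. In young replicates 2 and 5 its normalized counts of 268 and 194 lay within the range of the other young libraries (173 to 354). *Myh6* held 160 and 76 counts in those 2 libraries, so a rise of like size in *Tnnt2* could lie unseen within this range. With those libraries left out, a choice made after the values were seen, the log2 fold change was 1.69 ± 0.46, close to that over all libraries, although it no longer passed the threshold with 3 young mice. It also missed the threshold when the summed heart marker level entered the fit, at 1.64 ± 0.48. The tested genes whose levels followed it most closely over the 10 libraries, once group means were removed, were *Timp1* (Pearson r = 0.97), *Tspo* (r = 0.97) and *Serpinb6a* (r = 0.95). None of these encodes a sarcomere protein. Each of these correlations includes old replicate 3, whose *Tnnt2* value stood far above its group, and they were not computed without it.

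*Tnni3* (chr7:4518305-4524229) encodes the inhibitory subunit of cardiac troponin. Its normalized counts were 44.98, 52.3, 25.9, 42.5 and 45.1 in young replicates 1 to 5. In the old replicates they were 21.99, 33.8, 25.2, 23.1 and 21.4. Young replicates 1, 2, 4 and 5 lay above all old libraries, and young replicate 3 lay among the old ones. The fitted log2 fold change was −0.74 ± 0.23 and was not called. It was called with DESeq2, with edgeR on the size factors of DESeq2, and when young replicate 3 or old replicate 2 was left out. *Dnaaf3*, which overlaps 4.17% of its exonic sequence, had a log2 fold change of 0.30 ± 0.22 (adjusted p = 0.408, edgeR over all genes tested). *Tnnt1*, the slow skeletal troponin T, lies 1922 bases away on the same strand and was lower in all 5 old libraries (48 to 62 counts against 73 to 103 in young). Its log2 fold change was −0.67 ± 0.14 (adjusted p = 0.00731, edgeR).

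*Tnnc1* (chr14:31208312-31211729) encodes the calcium-binding subunit that heart and slow muscle share. It held few reads, with 12, 21, 12, 14 and 7 counts in the young and 7, 9, 14, 16 and 15 in the old replicates. The groups overlapped throughout, and the log2 fold change of −0.13 ± 0.32 was positive once young replicate 2 was left out (0.10). The 3 cardiac troponin subunits thus took different courses, and between *Tnnt2* and *Tnni3* the correlation over 10 libraries with group means removed was −0.32.

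Of the sarcomeric actins, *Actc1* (chr2:114047282-114053548) forms the thin filament of heart muscle. Its normalized counts were 66.4, 104, 282, 82.1 and 149 in young replicates 1 to 5. In the old replicates they were 31.98, 65.4, 24.2, 18.3 and 29.2. The groups did not overlap, but the gap was narrow, since the lowest young library (66.4) was barely above the highest old one (65.4). The mean was 137 ± 87.1 in young and 33.8 ± 18.4 in old aortae, and the log2 fold change was −2.02 ± 0.45. The highest value belonged to young replicate 3, which held 0 counts of *Myl7* and 5 of *Myh6*. Without young replicates 2 and 5 the log2 fold change was −2.09 ± 0.54, again of like size but below the threshold with 3 young mice. Without the filter on low counts it was not called either.

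*Acta1* (chr8:123891769-123894751) forms the thin filament of skeletal muscle and is also made in small amounts by the heart. Its normalized counts were 29.6, 207, 36.9, 31.9 and 50.2 in the young replicates. In the old replicates they were 28.0, 41.4, 26.1, 37.6 and 40.8. Young replicate 2 held 5.62 times the median of the other 9 libraries, which all lay between 26.1 and 50.2. The log2 fold change of −1.02 ± 0.55 rested on it: without young replicates 2 and 5 it was 0.08, with 32.8 ± 3.71 in 3 young and 34.8 ± 7.25 in 5 old mice. The share of *Acta1* in the summed counts of *Acta1* and *Actc1* was 66.7% in young replicate 2 (206 of 309, 95% exact binomial interval 61.1 to 71.9%, counting error only). In young replicate 1 it was 30.9% (29 of 94, 21.7 to 41.2%). Of the 50-base windows of *Acta1*, 2.02% also occur in transcripts of other genes, *Actb* among them, and 0% of those of *Actc1* do. Both members are close in sequence to *Acta2*, which had 390590 normalized counts on average in young aortae, and a transfer of reads between them was not tested.

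**Figure D1:**
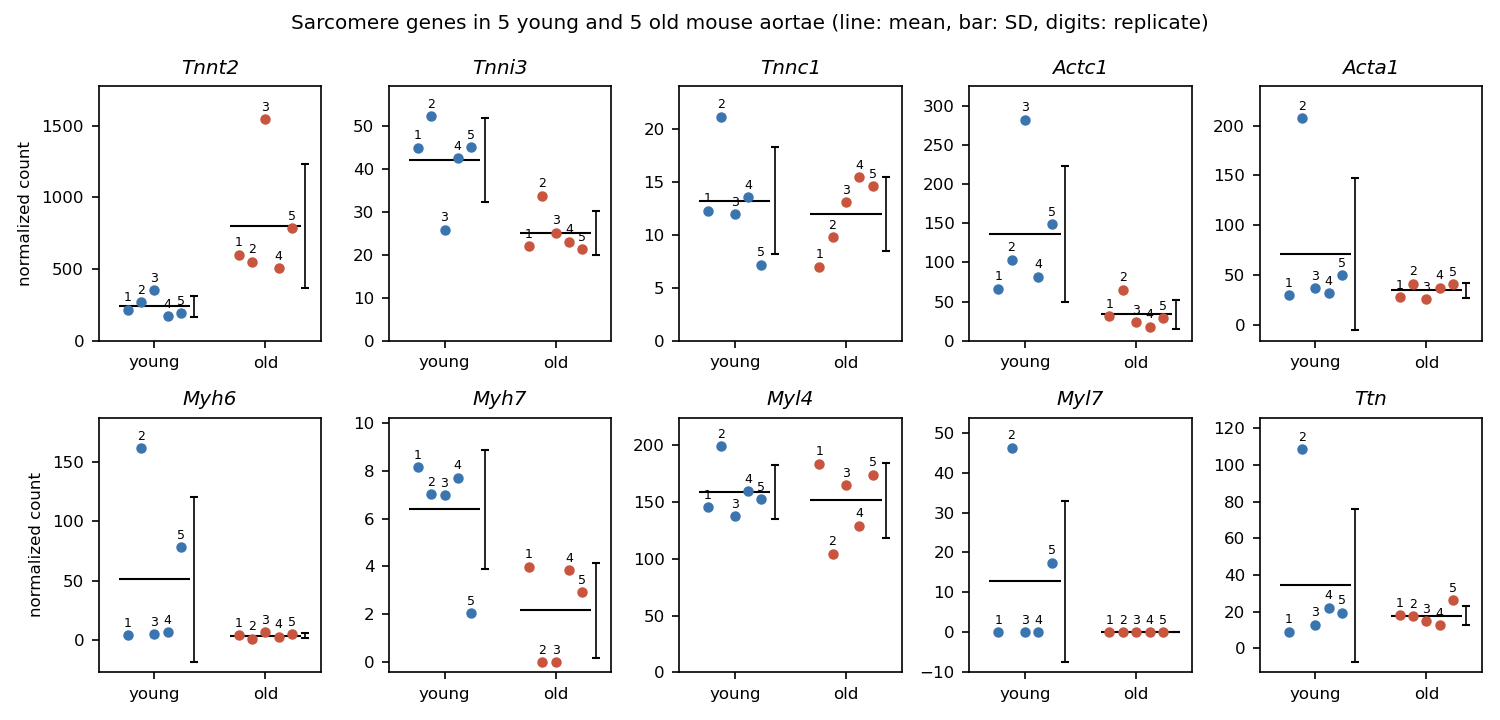
Normalized counts (counts divided by library size factors, linear axes that differ between panels) of the 10 sarcomere genes in 5 young and 5 old aortae, with points labelled by replicate number, a line at the mean and a bar of ± 1 SD. *Tnnt2* lies between 173 and 354 in young and between 506 and 1545 in old libraries, *Actc1* does not overlap between the ages, and young replicate 2 is the top point for *Acta1*, *Myh6*, *Myl7* and *Ttn*.

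The thick filament members held few reads. *Myh6* and *Myh7* encode the alpha and beta heavy chains, the fast and slow motors of heart muscle, and lie 3756 bases apart on chromosome 14. *Myh6* (chr14:54941921-54966927) had 4, 160, 5, 7 and 76 raw counts in the young replicates. In the old replicates it had 4, 1, 7, 3 and 5. After scaling, young replicate 2 held 33.1 times and young replicate 5 held 16.02 times the median of the respective other 9 libraries, while the 3 remaining young libraries lay within or next to the old range. *Myh7* (chr14:54970684-54994626) had 8, 7, 7, 8 and 2 counts in the young and 4, 0, 0, 4 and 3 in the old replicates. It was not raised where *Myh6* was: young replicate 5 held the fewest of its group. Of their 50-base windows, 20.2% of *Myh6* and 20.04% of *Myh7* also occur in other genes, mostly in each other, so the split of reads between them is uncertain.

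The light chains that bind these motors followed 2 different courses. *Myl7* (chr11:5896637-5898782), the atrial regulatory light chain, had 0, 46, 0, 0 and 17 counts in the young replicates and 0 in each old one. A count of 0 allows up to 3 counts, or between 0.131 and 0.153 CPM, in these libraries. *Myl7* made up 22.3% of the summed counts of *Myl7* and *Myh6* in young replicate 2 (46 of 206, 95% exact binomial interval 16.8 to 28.6%) and 18.3% in young replicate 5 (17 of 93, 11 to 27.6%). The intervals of the 2 libraries overlapped. *Myl4* (chr11:104550663-104595753), the atrial essential light chain that embryonic muscle also makes, had 142, 198, 138, 165 and 149 counts in the young and 184, 96, 177, 134 and 179 in the old replicates. It was present in all 10 libraries, the groups overlapped, and the log2 fold change was −0.06 ± 0.16. Young replicate 5, where *Myl7* was high, lay in the middle of its group for *Myl4*.

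*Ttn* (chr2:76703980-76982547) encodes titin, which spans from Z-disc to M-line. It had 9, 108, 13, 23 and 19 counts in the young replicates. In the old replicates it had 18, 16, 16, 13 and 27. Young replicate 2 held 6.23 times the median of the other 9 libraries. The log2 fold change of −0.94 ± 0.63 became 0.16 without that library and 0.26 without young replicates 2 and 5. *Acta1* and *Ttn* followed each other closely (r = 0.94 over 10 libraries with group means removed), a correlation that shares young replicate 2, whereas *Actc1* and *Tnnt2* did not (r = 0.19). The genes most like *Ttn* were *Tnnc2* (r = 0.96), *Ckm* (r = 0.93) and *Actn3* (r = 0.93), and those most like *Acta1* were *Mylpf* (r = 0.94), *Actn3* (r = 0.94) and *BC030343* (r = 0.92). *Tnnc2*, *Ckm*, *Actn3* and *Mylpf* encode troponin C, creatine kinase, alpha-actinin and light chain proteins of skeletal muscle.

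Per length of annotated exon, the members stood in a different order in the 2 ages. The length was that of all annotated exons of a gene merged, 7752 bases for *Tnnt2* and 1618 for *Actc1*, which need not be that of the transcripts made. The order between genes therefore depends on the annotation. In normalized counts *Tnnt2* (mean 241) was above *Actc1* (137) in young aortae. In young aortae *Actc1* had the highest mean level at 3.90 ± 2.50 CPM per kilobase (SD, n = 5), followed by *Acta1* (2.14 ± 2.30), *Myl4* (1.58 ± 0.239) and *Tnnt2* (1.44 ± 0.434). These neighbours did not differ beyond their spread, and the place of *Acta1* came from young replicate 2. In old aortae *Tnnt2* led at 4.78 ± 2.58 CPM per kilobase, followed by *Myl4* (1.51 ± 0.331), *Acta1* (1.05 ± 0.218) and *Actc1* (0.970 ± 0.530), of which *Tnnt2* stood apart from the next by more than their SDs and the others did not. *Tnni3* stood at 0.942 ± 0.218 in young and 0.564 ± 0.116 in old aortae, and *Tnnc1* at 0.586 ± 0.224 and 0.533 ± 0.156. *Myl7* (0.996 ± 1.58) and *Myh6* (0.349 ± 0.474) owed their young means to 2 libraries, and in old aortae they stood at 0 and 0.0267 ± 0.0141. *Myh7* (0.0343 and 0.0116) and *Ttn* (0.0136 and 0.00707) were the lowest in young aortae, *Ttn* having by far the longest transcript. The smooth muscle actin *Acta2* stood at 8204 and 7367 on the same scale.

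Of the 10 members, 7 passed the filter on low counts. *Myh6*, *Myh7* and *Myl7* did not, although DESeq2 on all genes with a count called *Myh6* as lower in old aortae. Of the 7, 2 were called at an adjusted p below 0.05 by edgeR, *Tnnt2* as higher and *Actc1* as lower. Over all 14614 genes tested 11.5% were called, 6.48% as higher and 4.99% as lower in old aortae. The groups did not overlap for 2 of the 7 members and for 9.92% of all genes tested. Since the members were selected on this contrast, nothing is read from these counts. The median log2 fold change of the 7 was −0.74, with 1 positive and 6 negative, against 0.00 for all genes tested. Without young replicates 2 and 5 no member was called, *Acta1*, *Ttn* and *Myl4* were near or above 0, and 780 genes in all were called in place of 1676.

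**Figure D2:**
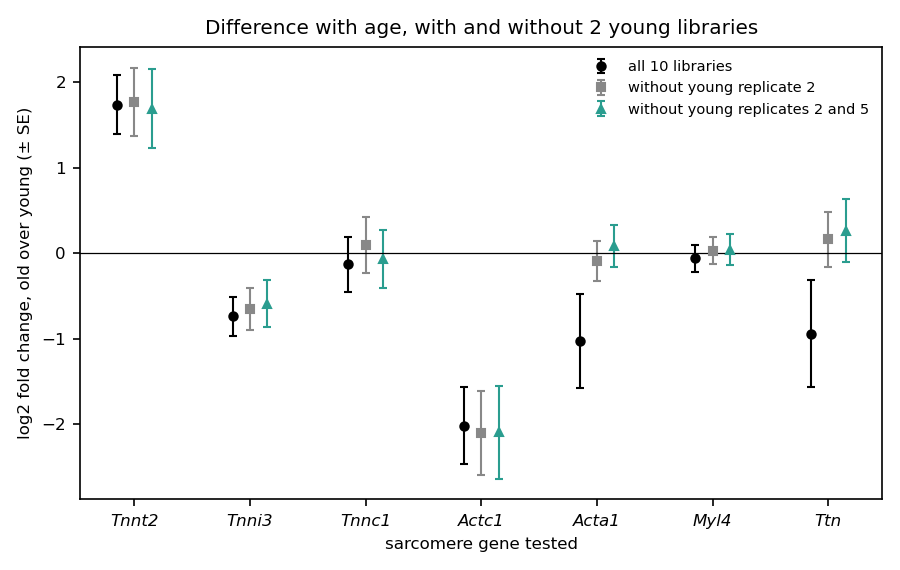
Fitted log2 fold change of old over young aortae (vertical axis, bars ± SE) for the 7 sarcomere genes tested, with all 10 libraries, without young replicate 2, and without young replicates 2 and 5. *Tnnt2* stays between 1.69 and 1.77 and *Actc1* between −2.02 and −2.10, whereas *Acta1* and *Ttn* move from about −1 to values close to 0.

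Heart markers were then set beside the members, from a list of 22 genes that holds no member. The sum of the list mostly followed 2 genes: *Hspb7*, a small heat shock protein that the vessel wall also makes, gave 78.7% of its counts, and with *Ryr2*, a calcium release channel, 94.7%. The sum ranged from 480 to 849 CPM in young and from 734 to 908 in old aortae, a difference of 0.29 in mean log2 level (exact two-sided permutation test, p = 0.167). Over the libraries, with group means removed, the correlation of the 10 members with this sum ranged from −0.48 to 0.69. Among its 9 genes tested, 1 was called, where 11.5% of all genes tested were called. It was *Ryr2*, higher in all 5 old libraries (log2 fold change 0.23 ± 0.07, adjusted p = 0.0384, edgeR). That call was lost when any of 7 single libraries was left out.

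The 13 genes of that list too low to be tested set young replicate 2 apart as a sum, while young replicate 5 was only just above the highest old library. Their counts summed to 62 in young replicate 2 and 27 in young replicate 5, against 9 to 15 in the other young and 10 to 23 in the old libraries. *Nppa*, the atrial natriuretic peptide, had 5 counts in young replicate 2, 1 in young replicate 5 and 0 elsewhere. *Sln*, the atrial sarcolipin, had 13 and 5 counts there and 0 to 4 in the others. *Cox6a2*, a respiratory chain subunit of striated muscle, had 7 and 6 counts there and 1 to 3 in the others. Of the 13 genes, 10 had a count. Young replicate 2 held the highest normalized count of 7 of them, and young replicates 2 and 5 were the top 2 libraries for 3, *Nppa*, *Sln* and *Cox6a2*, which are named for that reason. *Trdn* and *Smpx* were also highest in young replicate 2. In young replicate 5 *Trdn* had 7 counts (2.40 times the median of the other 9 libraries), below the 12 of old replicate 2. *Smpx* had 2 counts in young replicate 5, and *Tbx5* had 1 to 6 counts with no such order. From the list of other sarcomere genes, *Mybpc3*, the cardiac myosin binding protein C, had 13 and 10 counts in young replicates 2 and 5 and 0 to 6 elsewhere. *Csrp3* had 4 and 1 counts in these libraries and 0 elsewhere. *Lmod2* had 11 and 4, with 4 in young replicate 4 and 0 in the rest. *Xirp2* had 22 and 4, with 7 in old replicate 5. Of the heart markers that were tested, *Mb* had 27 counts in young replicate 2, 16 in young replicate 5 and 18 in old replicate 3. *Casq2* had 74 in young replicate 2 and 20 in young replicate 5, the fewest of the young libraries. *Rbm20* had 220 and 234 counts in young replicates 2 and 5 and 129 to 219 elsewhere.

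The ventricular light chains were not raised in the same libraries. *Myl2* had 0 to 4 and *Myl3* 0 to 2 counts in each of the 10 libraries. *Nkx2-5*, *Lrrc10* and *Bmp10* were at 0 in every library. In young replicate 5 *Tnnt2*, *Actc1* and *Tnni3* lay within the range of the other young libraries, where *Myh6* held 16.02 times the median of the other 9. Whether heart muscle left on the vessel gave the counts of *Myl7* and *Myh6* was not tested.

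Of the 27 skeletal muscle markers, 24 had a count, and 12 of these were highest in young replicate 2. *Myh4*, the fastest heavy chain, had 284 counts in young replicate 2 and 0 to 5 in the other 9 libraries. *Atp2a1*, the calcium pump of fast fibres, had 164 there and 0 to 13 elsewhere, and *Pvalb*, their calcium buffer, had 83 and 0 to 9. *Tnni2* and *Tnnt3*, the fast troponin subunits, had 63 and 156 counts there against 1 to 16 and 18 to 52. *Ckm*, the muscle creatine kinase, had 343 there and 96 to 141 elsewhere, so that it was present in every library. Other skeletal heavy chains were not highest there. *Myh1* had 37 counts in old replicate 5 against 7 in young replicate 2, and *Myh2* had 3 in young replicate 2 against 10 in old replicate 3. The regulators *Myf5*, *Myf6* and *Myog* were at 0 in every library. Young replicate 5, high in *Myh6* and *Myl7*, was not raised in *Myh4* (5 counts) or *Tnni2* (4 counts), and *Acta1* and *Ttn* were 1.36 and 1.12 times the median of the other libraries in it. The part of attached skeletal muscle in the values of young replicate 2 was not tested.

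**Figure D3:**
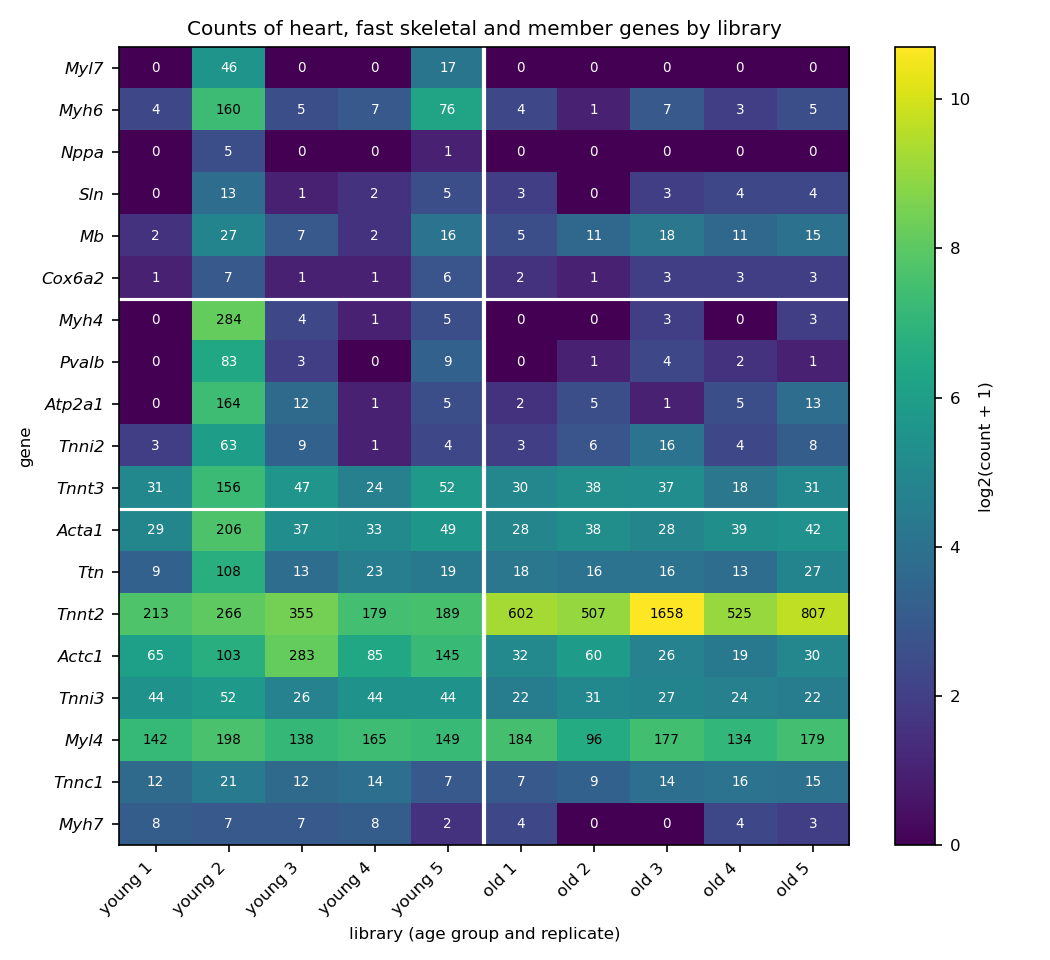
Raw counts (numbers in the cells) and their log2(count + 1) (colour scale) of heart genes with *Myl7* and *Myh6* (upper block), fast skeletal muscle genes (middle block) and the other members (lower block) in 5 young and 5 old aortae. *Myl7* and *Myh6* are raised in young replicates 2 and 5, the skeletal genes shown, *Acta1* and *Ttn* in young replicate 2, and *Tnnt2* across the old libraries. The heart and skeletal genes shown were chosen from the lists after their values were seen.

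The skeletal muscle list of 27 genes was lower in old aortae as a sum, with 161 to 281 CPM in young and 118 to 160 in old libraries. The difference in mean log2 level was −0.41, with an exact two-sided permutation p of 0.00794, the smallest that 5 against 5 libraries can give. The marker lists were chosen with earlier results of these data known. This p and that of the heart sum therefore describe the libraries and carry no test. *Casq1*, the calcium store protein of the sarcoplasmic reticulum, gave 48.1% of the counts, and with *Mylk2*, the myosin light chain kinase of skeletal muscle, 78.2%. As a mean over the log2 values of single genes the difference was −0.17 (p = 0.349, exact permutation test). Of its 11 genes tested, 3 were called, all as lower, where 4.99% of all genes tested were called as lower. *Mybpc2*, the fast myosin binding protein C, had 140 to 231 counts in young and 58 to 70 in old libraries, with a log2 fold change of −1.48 ± 0.16 (adjusted p = 0.000104, edgeR). This was lower in all 5 old libraries and did not rest on young replicate 2. *Mylk2* had a log2 fold change of −0.44 ± 0.13 (adjusted p = 0.0419, edgeR), a call lost when any of 8 single libraries was left out. *Tnnt1* is given above.

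Over 10 libraries with group means removed, the correlations of the members with the skeletal sum ranged from −0.33 to 0.86 and are given as a description. They were highest for *Ttn* (r = 0.86, Spearman's rho = 0.62), *Myl7* (r = 0.84, rho = 0.65), *Myh6* (r = 0.84, rho = 0.84) and *Myl4* (r = 0.82, rho = 0.85). Without young replicate 2 and old replicate 2, which lay farthest from the median of the sum, r was 0.62, 0.67, 0.73 and 0.64.

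Of 48 other sarcomere genes, 35 were tested and 4 called, 2 in each direction. Over all genes tested 11.5% were called, so nothing about the set is read from this count. *Tcap*, the titin cap of the Z-disc, had the larger rise of the 2 that were higher, with 963, 1516, 839, 953 and 1902 counts in young and 2049, 2749, 3826, 2422 and 3813 in old replicates. The groups did not overlap, and its log2 fold change was 1.25 ± 0.27 (adjusted p = 0.0155, edgeR). Old replicates 3 and 5 were the highest libraries for both *Tcap* and *Tnnt2*. *Nebl*, which encodes the thin filament protein nebulette, rose by 0.46 ± 0.12 on the log2 scale (adjusted p = 0.0213, edgeR). *Xirp1*, an actin-binding repair protein of the intercalated disc, fell in all 5 old libraries with a log2 fold change of −0.996 ± 0.17 (adjusted p = 0.00491, edgeR), and *Synpo2l* fell with −0.50 ± 0.14 (adjusted p = 0.0362, edgeR). The call of *Synpo2l* was lost when any of 6 single libraries was left out (adjusted p 0.0676 to 0.0803, edgeR), that of *Nebl* without old replicate 4 (0.0538), and those of *Tcap* and *Xirp1* in no such case.

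*Actn2* and *Myoz2*, Z-disc proteins that bind each other, had log2 fold changes of −1.42 ± 0.47 (adjusted p = 0.085, edgeR) and −1.06 ± 0.35 (adjusted p = 0.0836, edgeR) and were not called. *Actn2* had 71, 543, 204, 460 and 194 counts in young and 93, 107, 155, 78 and 118 in old replicates. It was thus high not only in young replicate 2 but also in young replicate 4, which held 7 counts of *Myh6* and 0 of *Myl7*. Abundant sarcomere genes that smooth muscle also uses had small differences that were not called, among them the tropomyosins *Tpm1* (−0.12 ± 0.07) and *Tpm2* (0.00 ± 0.07), the M-line gene *Myom1* (−0.01 ± 0.13) and desmin (*Des*, 0.15 ± 0.16). The median log2 fold change of the 35 was −0.10, and without young replicates 2 and 5, 2 of them were called.

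**Figure D4:**
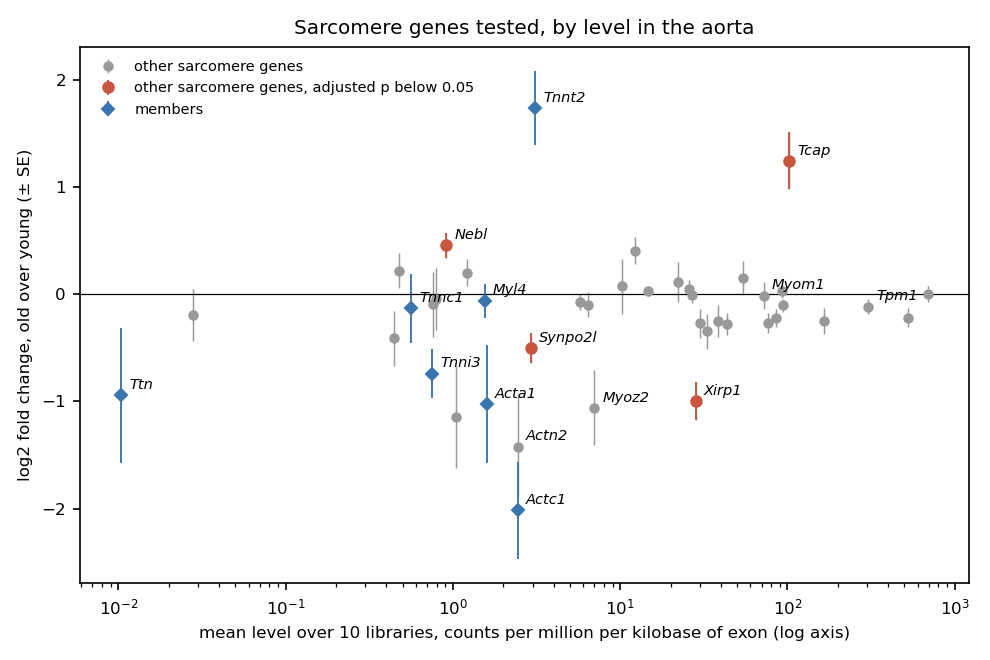
Log2 fold change of old over young aortae (vertical axis, bars ± SE) against the mean level over 10 libraries in CPM per kilobase of exon (horizontal log axis) for the 7 members (diamonds) and 35 other sarcomere genes (circles, filled red where the edgeR adjusted p was below 0.05). The members lie at the low end of the scale, and *Tcap* and *Xirp1* are the abundant genes with the largest changes.

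Of 18 chaperones and turnover factors of the sarcomere, 14 were tested, with 7 positive and 7 negative log2 fold changes and a median of −0.16. Of the 14, 5 were called, each as lower in old aortae, where 4.99% of all genes tested were called as lower. *Klhl41*, a ubiquitin ligase adaptor that stabilizes nebulin, fell in all 5 old libraries (−0.81 ± 0.14, adjusted p = 0.00255, edgeR). *Bag3* and its partner *Hspb8*, which clear damaged filament proteins, fell by 0.89 ± 0.22 and 0.52 ± 0.11 on the log2 scale (adjusted p = 0.0279 and 0.00731, edgeR). *Hspb1* and *Hsp90aa1* fell by 0.94 ± 0.24 and 0.76 ± 0.19 (adjusted p = 0.0336 and 0.03, edgeR). The muscle ligases *Trim63*, *Trim54* and *Trim55* had 3 counts or fewer over all 5 libraries of each group. *Bag3* lost its call when any of 4 and *Hsp90aa1* when any of 6 single libraries was left out. With the skeletal marker level in the fit 0 of the 14 were called, with the replicate number as a block 2, and without young replicates 2 and 5, 3.

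Markers of other cell types were read beside the members. Of 8 leukocyte markers 6 were tested and 2 called, where 11.5% of all genes tested were called. The sum of the leukocyte markers was 248 to 406 CPM in young and 360 to 816 in old aortae. *Cd68* (0.83 ± 0.19, adjusted p = 0.0155, edgeR) and *C1qa* (0.68 ± 0.18, adjusted p = 0.0309, edgeR) were higher in all 5 old libraries, and the call of *C1qa* was lost when any of 5 single libraries was left out. Of 11 adipocyte markers 10 were tested and 1 called, *Dio2* as lower (−0.67 ± 0.14, adjusted p = 0.0104, edgeR). Their sums of 411 to 1275 CPM in young and 213 to 508 in old aortae overlapped. Blood markers overlapped too (33.1 to 168 against 37.5 to 212 CPM, 0 of 5 genes called), as did Schwann cell markers (48.7 to 88.3 against 68.7 to 81.2 CPM), of which 7 were tested and 1, *Prx*, called. The part of these cells in the values of *Tnnt2* and *Actc1* was not tested.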

How the data were processed

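Aortic RNA of 5 young and 5 old mice was sequenced with 1 library per mouse. The authors trimmed reads with fastp 0.20.0, removed those under 35 bases, aligned the rest with STAR 2.7.0f to GRCm38 and counted them per gene with featureCounts (Subread 1.6.4) on GENCODE M22. The table holds raw counts as deposited, for 55453 symbols and without normalization. The strand setting and the treatment of multiply aligned reads are not given in the sources used here. Positions, exonic lengths and shared windows were taken from GENCODE M21 on the same build, in which 54471 symbols matched by name.

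Old and young libraries were compared with the quasi-likelihood F test of edgeR 4.0.16 (robust fit, TMM, filterByExpr, no covariates) under R 4.3.3, which tested 14614 of 28011 genes with a count. Genes were called at a Benjamini-Hochberg adjusted p below 0.05 over all of them. Normalized counts used the size factors of DESeq2 1.42.0, and summed levels log2(CPM + 1). Alternatives were DESeq2, limma 3.58.1 (voom), other scalings and filters, a replicate block, marker levels as covariates and omission of each library. The members and lists were chosen with earlier results of these data known. Genes named beyond the members were drawn from the called genes of each list with the smallest p (up to 4 a direction). They were also drawn from the 3 most abundant heart, skeletal and smooth muscle markers and the 3 genes most like each member. Not all of these are given, and the most alike genes are given for *Tnnt2*, *Acta1* and *Ttn* alone. Single genes of lists were added after their values were seen. The tests were tested on simulated data.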

Additional observations from a re-analysis of the deposited data

Results flagged for a closer look

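In 4 of the 19 groups of 5 libraries examined, 1 library stood farther from its neighbour than Dixon's 95% limit allows, where chance gives about 1 in 20 groups. *Tnnt2* had a normalized count of 1545 in old replicate 3, with the next at 785. *Acta1* had 207 in young replicate 2, with the next at 50.2. *Ttn* had 109 in the same library, with the next at 22.2. *Myh7* had 2.05 in young replicate 5, below the next at 6.98, which is 2 counts against 7. The genes were selected on values of these libraries and *Acta1* and *Ttn* share young replicate 2, so the count of such groups is a description and is not evidence against chance.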

How the results depend on the processing

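Each mouse gave 1 library, and nothing in the labels ties litters, cages or extraction days to the libraries. *Myh6*, *Myh7*, *Myl7*, *Tnnc1* and *Ttn* rest on fewer than about 30 counts in most libraries, and differences of a few counts were not detectable at this depth. *Myh6* and *Myh7* share sequence, which the counts alone cannot resolve.

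*Tnnt2* kept its direction under every alternative run (log2 fold change 1.35 to 1.98), as did *Actc1* (−2.53 to −1.57) and *Tnni3* (−0.87 to −0.59). The signs of lesser members turned. With the skeletal marker level as a covariate the log2 fold change was 0.28 for *Tnnc1*, 0.50 for *Acta1*, 0.28 for *Myl4* and 0.93 for *Ttn*. Without young replicates 2 and 5 (added after the data were seen) it was 0.083 for *Acta1*, 0.040 for *Myl4* and 0.26 for *Ttn*. When 1 library was left out, *Tnnc1* ranged from −0.29 to 0.10 (without young replicate 2; 0.01 without old replicate 1), *Myl4* from −0.14 to 0.041 (without old replicate 2; 0.03 without young replicate 2) and *Ttn* from −1.18 to 0.16 (without young replicate 2). The cause was not tested.

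Over all genes, 1676 calls became 641 with the skeletal covariate, 658 at a threshold of 0.01 and 780 without young replicates 2 and 5, and ranged from 1132 to 2367 when each library was left out. Calls among the members were 4 with DESeq2, 1 without the low-count filter, 1 with the heart covariate and 0 without young replicates 2 and 5 (2 to 3 with 1 library left out). Other sarcomere genes called, 4 of 35, were 9 with DESeq2, 12 with the heart and 1 with the skeletal covariate and 2 without young replicates 2 and 5. With 1 library left out they were 13 (without young replicate 1) to 2 (without old replicate 4). Heart markers called were 2 with DESeq2, 0 with either covariate and without young replicates 2 and 5, and 0 to 2 with 1 library left out. Skeletal markers called were 1 with the skeletal covariate and without young replicates 2 and 5, and 2 to 3 with 1 library left out. Assembly and turnover genes called were 3 without the filter and without young replicates 2 and 5, 0 with the skeletal covariate, and 2 to 8 with 1 library left out. Transcription factors called were 3 with DESeq2, 0 with limma-voom, upper-quartile factors, library size alone, no filter and without young replicates 2 and 5, and 0 to 2 with 1 library left out.

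As a mean of log2 values, the heart marker difference turned to −0.035 and the skeletal one weakened to −0.17 (exact permutation p = 0.349), and 1 member had an adjusted permutation p below 0.05 for its correlation with the heart level, where it was 0 members with the sum (a description, since the members were selected on these libraries). With 1 library left out the heart difference ranged from 0.17 to 0.38 (exact permutation p = 0.0397 without young replicate 5), the skeletal one from −0.47 to −0.27, and that number of members from 0 to 1 (1 without young replicate 2).

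Replicate numbers did not pair the libraries: deviations of same-numbered libraries correlated between −0.338 and 0.125, and 1 of 5 numbers had its own partner as the closest. With the replicate block 1261 genes were called, 2 of them members, 5 other sarcomere genes, 0 heart markers, 3 skeletal markers, 2 assembly and turnover genes and 0 transcription factors.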

Other observations

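Outside the sarcomere list, 14 other actin and myosin genes were read, of which 13 were tested and 3 called. Over all genes tested 11.5% were called. *Myh14*, a non-muscle heavy chain, rose by 1.32 ± 0.28 on the log2 scale and was higher in all 5 old libraries (adjusted p = 0.0083, edgeR). It held few reads, with 7 to 15 counts in young and 16 to 30 in old libraries. *Myh10*, another non-muscle heavy chain, fell in all 5 old libraries (−0.34 ± 0.08, adjusted p = 0.0137, edgeR), and the light chain gene *Myl12a* fell (−0.44 ± 0.11, adjusted p = 0.0234, edgeR). The smooth muscle genes *Acta2* (−0.16 ± 0.09), *Myl9* (−0.05 ± 0.07), *Tagln* (0.06 ± 0.08) and *Myh11* (−0.07 ± 0.08) were not called. Of 15 smooth muscle markers, *Smtn* rose (0.29 ± 0.07, adjusted p = 0.0217, edgeR) and *Hspb6* fell (−0.41 ± 0.08, adjusted p = 0.00499, edgeR).

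Among 25 transcription factors and cofactors of muscle genes, 17 were tested and 1 called, where 11.5% of all genes tested were called. It was *Mef2c* (−0.23 ± 0.07, adjusted p = 0.0472, edgeR), a call lost when any of 8 single libraries was left out. *Srf*, whose product binds CArG boxes, had a log2 fold change of −0.15 ± 0.05 (adjusted p = 0.0749, edgeR) with old libraries all below young ones. Its cofactor *Myocd* had −0.54 ± 0.30 (adjusted p = 0.294, edgeR), and *Tead1*, whose product binds M-CAT motifs, 0.06 ± 0.09 (adjusted p = 0.729, edgeR). The heart factors *Nkx2-5* and *Hand1* had no count in either group, but others on the list did. *Tbx20* had 227 and 174 counts in young replicates 2 and 5 and 64 to 149 elsewhere. *Gata6* had 1302 to 1747 counts per library, *Hand2* 11 to 45, *Gata4* 0 to 6 and *Tbx5* 1 to 6.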
